A study of Mus musculus with 12 samples.

Results

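The 6 tumour samples described here come from mice given both checkpoint antibodies, 3 of them with Dexa at 10 mg in addition and 3 without it. They are 6 of the 12 primary tumour samples of the series, chosen by their titles, and were compared over the 770 endogenous genes of a panel that largely covers the immune system. All 6 samples are hepatocellular carcinomas of the mouse treated with dICB, which the labels give as anti-PD-1 with anti-CTLA4. Dexa is not spelled out in the labels, and the series title speaks of corticosteroid premedication. The labels state a dose in mg, and give no body weight, schedule, strain, age, tumour line or order of the agents, and no group had Dexa alone. The remaining samples were 3 under isotype antibody and 3 under dICB with Dexa at 200 mg. They entered the filter on low counts, the normalisation, the estimate of the spread, and the scores and covariate fit that take in all 12 samples. Their levels are set beside these at the end. RNA came from formalin-fixed tissue.

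PD-1 and CTLA-4 are receptors that restrain T cells, and antibodies against them release that restraint. Corticosteroids act through the glucocorticoid receptor, a transcription factor that turns on a set of anti-inflammatory genes and holds back NF-kB and AP-1, the factors behind most inflammatory cytokines, chemokines and prostaglandin synthesis. In liver and liver tumours the cells that carry such programmes include macrophages, neutrophils, endothelium and the tumour cells themselves. In bulk tissue, fewer cells of a type and less RNA per cell cannot be told apart.

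Total gene counts ran from 252994 to 428944 over these samples, and the count that marks background (mean of the negative controls plus 2 SD) from 21.8 to 38.1. The filter, a mean count of 20 or more across the 12 samples, left 635 genes, of which 510 lay above background in every one of the 6 tumours. Genes that mark liver parenchyma were largely at background: of 21 hepatocyte and acute phase genes on the panel 10 could be tested, while Crp, Mbl2, C8a, C9, Saa1 and Hamp were at background in all 6. Epcam and Apoe were well above it. Whether each sample is a separate animal or tumour is not said, so a tumour in this text means a tumour sample. The errors below measure the spread between samples, which may be technical. Levels are normalised counts, in the order of replicates 1, 2 and 3, and changes are log2 fold changes of Dexa 10 mg with dICB over dICB ± SE, with n = 3 per group.

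A pair of the 6 libraries stood apart from their groups. Replicate 1 of dICB was more than 2-fold above each of the other 5 in 34 genes, while the remaining dICB samples were so in 1 gene (replicate 2) and 0 genes (replicate 3). Replicate 2 of Dexa 10 mg was at under 0.5 times the lowest of the other 5 in 21 genes and over 2 times the highest in 3. Its log2 counts correlated with those of its own group at 0.942 and 0.926, where the other Dexa 10 mg pair reached 0.979. Replicate 1 of dICB correlated with its group at 0.895 and 0.900, and the remaining dICB pair at 0.956. The counts over all genes, and the lists and genes whose direction or size turns on these libraries, are therefore given with and without them. A code in the labels, of unstated meaning, added to this: all dICB samples and Dexa 10 mg replicate 2 carried ICI10, and Dexa 10 mg replicates 1 and 3 carried ICI7.

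No gene passed an adjusted p of 0.05 between the groups. By edgeR's quasi-likelihood test with Benjamini-Hochberg adjustment over 635 genes the count was 0 (0%), with a smallest adjusted p of 0.402, and DESeq2 also gave 0, with 48 genes (7.56%) at an unadjusted p under 0.05. DESeq2 returned no adjusted p for genes such as Cd14 and Cfd, each high in a single sample, so these could not enter its count. The edgeR count stayed at 0 without dICB replicate 1, without Dexa 10 mg replicate 2 and without both. An unadjusted p under 0.05 was found for 60 genes (9.45%), 20 higher (3.15%) and 40 lower (6.3%), where 31.75 would be met by chance. The same split was 4 higher and 72 lower when samples were scaled by housekeeping genes, and 26 higher and 28 lower when scaled by positive controls. Genes that are lower tend by their choice to have a dICB sample as the highest. Of the 40 genes that were lower, dICB replicate 1 was the highest of the 6 samples in 34, and over all 635 genes in 131. Without that library 25 genes (3.94%) had an unadjusted p under 0.05, 14 higher (2.2%) and 11 lower (1.73%), and 10 of the 60 were among them with the same sign. Without Dexa 10 mg replicate 2 there were 53 (8.35%), 17 higher (2.68%) and 36 lower (5.67%). Without both there were 30 (4.72%), 14 higher (2.2%) and 16 lower (2.52%).

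**Figure D1:**
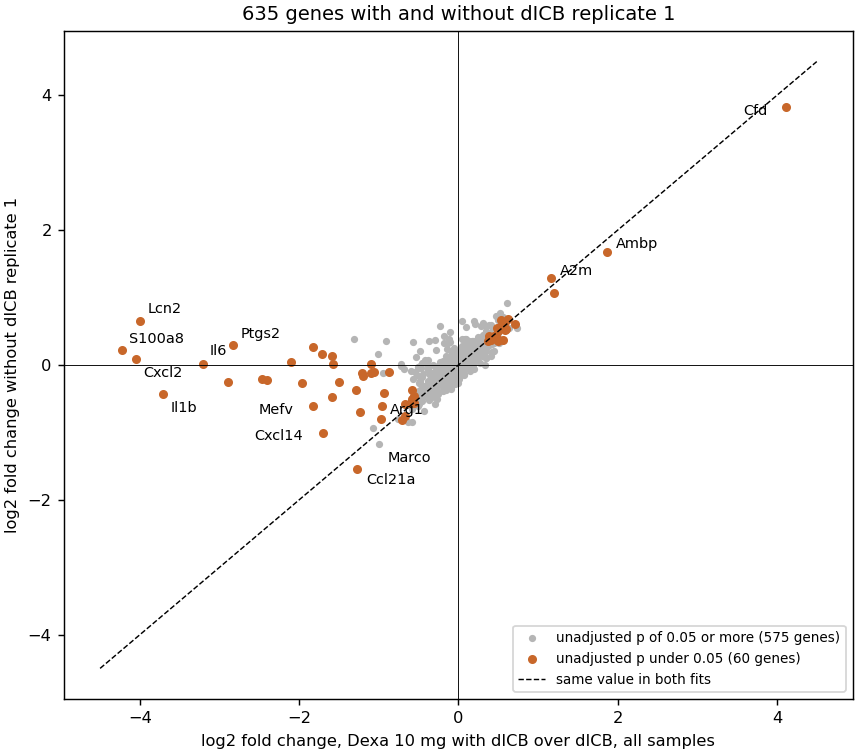
Each point is 1 of 635 genes, with its log2 fold change of Dexa 10 mg with dICB over dICB from all samples (x axis) and from the fit without dICB replicate 1 (y axis), and the dashed line marks equal values. The genes furthest left on the x axis, such as S100a8 at -4.22 and Cxcl2 at -4.04, lie near 0 on the y axis, while A2m, Ambp and Ccl21a lie near the line.

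The largest downward differences were in inflammatory genes, and they came from 1 dICB sample. Il1b, the cytokine that amplifies inflammation through the interleukin-1 receptor, was at 3386, 148 and 106 under dICB and at 92.6, 108 and 77.5 with Dexa 10 mg (-3.71 ± 1.02). Only dICB replicate 1 was high, and the other 5 samples overlapped in part. Il1a, its relative released by damaged cells, was at 654, 47.2 and 31.3 against 42.2, 27.9 and 28.7 (-2.90 ± 0.87), again with 1 high sample. Il6, an inducer of the acute phase response, was at 488, 21.2 and 16.4 against 17.4, 21.4 and 18.3 (-3.21 ± 0.99), and outside that tumour it was at background in all samples. Ptgs2, the inducible cyclooxygenase, was at 1538, 69.2 and 61.1 against 84.4, 92.2 and 59.2 (-2.83 ± 0.95), and Osm, a cytokine of the interleukin-6 family, at 321, 25.2 and 35.7 against 23.8, 39.1 and 27.0 (-2.10 ± 0.74). Without dICB replicate 1, these log2 fold changes were -0.43 for Il1b, -0.26 for Il1a, 0.017 for Il6, 0.30 for Ptgs2 and 0.046 for Osm.

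Chemokines that draw neutrophils and monocytes followed the same sample pattern. Cxcl2 was at 1459, 30.1 and 28.3 under dICB against 33.0, 21.4 and 37.4 with Dexa 10 mg, and Cxcl1 at 125, 14.7 and 20.9 against 11.9, 17.7 and 12.2. Both signal through Cxcr2, the main chemokine receptor of neutrophils, which was itself at 137, 22.0 and 17.9 against 22.0, 15.8 and 22.6. Ccl3, an inflammatory chemokine of myeloid cells, was at 1701, 180.0 and 101 against 133, 125 and 101 (-2.47 ± 0.77, and -0.21 without dICB replicate 1). In each of these genes the remaining dICB samples lay within or next to the range of the Dexa 10 mg samples. Csf3, the growth factor of neutrophils, fell short of the filter on low counts, and its raw counts were 111, 18 and 6 under dICB and 12, 14 and 10 with Dexa 10 mg.

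**Figure D2:**
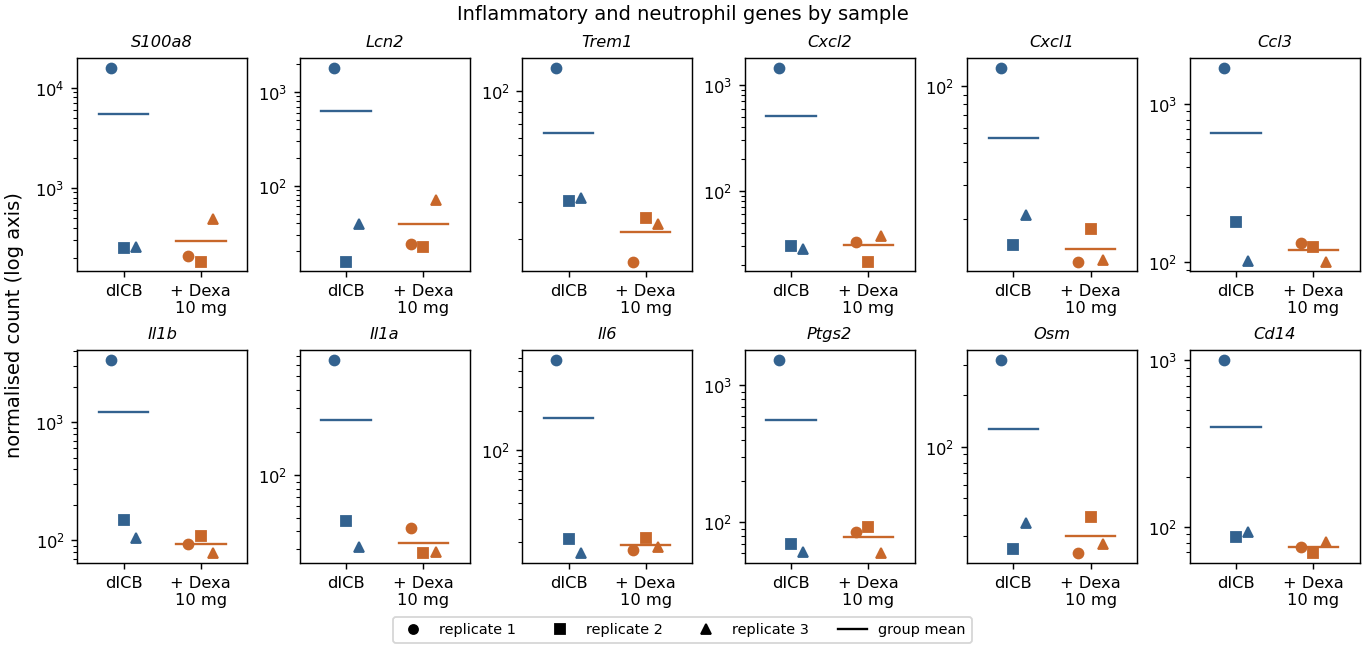
Normalised counts on log axes, 1 panel a gene, for the dICB samples (blue) and the samples with Dexa 10 mg added (orange); the marker shape gives the replicate and the bar the group mean. In all 12 panels dICB replicate 1 is the highest sample. In Il1b the other 5 samples lie at 77.5 to 148, and in some panels, such as Lcn2 and S100a8, they spread more widely.

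Neutrophil genes were the list with the largest shift. S100a8, a subunit of the neutrophil protein calprotectin, was at 15823, 252 and 256 under dICB and 206, 183 and 484 with Dexa 10 mg, and Lcn2, an iron-trapping granule protein that hepatocytes also make under inflammation, at 1819, 15.5 and 38.7 against 23.8, 22.3 and 70.5. Of 13 members on the panel 8 passed the filter, among them Cxcr2, which was above background only in dICB replicate 1. All 8 were lower with Dexa 10 mg, each with an unadjusted p under 0.05 (over all genes 6.3%), and their median was -1.54 where that of all tested genes was -0.011. Cxcr2 had to differ once past the filter, so the count of 8 does not stand as support. Without dICB replicate 1 the members numbered 3 higher and 5 lower, with a median of -0.18 and 0 at an unadjusted p under 0.05. Without both libraries S100a8 and Lcn2 were at 0.44 and 0.92, above dICB. The list score, the mean log2 deviation of its members from all 12 samples, was 2.73 in that tumour and between -0.56 and -0.11 in the other 5. The genes of the granules laid down in bone marrow, Mpo, Elane, Ltf and Camp, were at background in all 6 tumours, that one included.

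Trem1, a receptor that amplifies myeloid activation, did not rest on that tumour to the same degree. It was at 129, 30.1 and 31.3 under dICB and 15.6, 25.1 and 23.5 with Dexa 10 mg, so that the groups did not overlap (-1.59 ± 0.48; -0.48 without dICB replicate 1 and -0.64 without both libraries), though it was above background in only 2 of the 6. Mefv, which encodes the inflammasome sensor pyrin, was similar at 261, 62.7 and 44.7 against 37.6, 26.1 and 40.9 (-1.83 ± 0.53; -0.61 without dICB replicate 1). For Cd14, the co-receptor for bacterial lipopolysaccharide, the groups did not overlap either, at 1009.9, 86.3 and 92.3 against 75.2, 68.9 and 81.0, but the gap outside dICB replicate 1 was small (-0.22 without it).

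The wider inflammatory lists showed the same dependence. All 15 tested genes of the interleukin-1 family were lower, 7 with an unadjusted p under 0.05 (over all genes 6.3%), with a median of -0.59. Of these Il1rn, the receptor antagonist, was at -1.29 ± 0.45, Il1r2, the decoy receptor, at -1.06 ± 0.43 and Il1rap, the shared receptor chain, at -0.93 ± 0.33. Without dICB replicate 1 these were at -0.37, -0.11 and -0.41, 12 of 15 members were lower, and the median was -0.23. Of 27 NF-kB response genes, 19 were lower and 11 of them had an unadjusted p under 0.05 (over all genes 6.3%), with a median of -0.58. Among the 11, Il6 and Cxcl1 were above background only in dICB replicate 1, so that they had to differ once past the filter, and the count does not stand as support. Without that tumour 11 were lower and 16 higher, with 0 lower at an unadjusted p under 0.05 and a median of 0.023.

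A motif of NF-kB was looked up close to the start of these genes. The windows below are the 250 bases before the annotated start of 3 of them in RefSeq's table for the GRCm38.p6 build, shown because the genes were high together in dICB replicate 1 and hold the motif GGG, then any 2 bases, then TTTCC, searched on both strands, whose matches are in capitals. The windows are chr5:90890995-90891244 for Cxcl1, chr5:90903649-90903898 for Cxcl2 and chr5:30012864-30013113 for Il6, all on the plus strand.
Cxcl1: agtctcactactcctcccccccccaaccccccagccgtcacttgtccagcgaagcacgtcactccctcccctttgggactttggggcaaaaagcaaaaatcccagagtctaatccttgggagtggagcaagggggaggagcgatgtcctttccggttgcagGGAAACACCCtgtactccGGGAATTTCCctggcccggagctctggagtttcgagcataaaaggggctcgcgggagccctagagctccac
Cxcl2: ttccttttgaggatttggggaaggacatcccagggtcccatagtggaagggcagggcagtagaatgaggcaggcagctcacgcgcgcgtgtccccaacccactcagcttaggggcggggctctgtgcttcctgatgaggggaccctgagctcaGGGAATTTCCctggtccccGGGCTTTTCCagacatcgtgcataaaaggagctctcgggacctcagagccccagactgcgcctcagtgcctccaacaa
Il6: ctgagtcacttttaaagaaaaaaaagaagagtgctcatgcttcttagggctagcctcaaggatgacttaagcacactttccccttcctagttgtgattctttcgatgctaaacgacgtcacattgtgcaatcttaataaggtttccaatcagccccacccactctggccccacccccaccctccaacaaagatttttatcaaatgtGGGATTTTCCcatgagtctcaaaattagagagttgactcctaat
Cxcl1 and Cxcl2 each held 2 matches and Il6 held 1. The motif stood in 1.41% of all 32851 windows of that length in the table and in 6.25% of the 464 tested genes with a window. Of the 10 genes whose fold change moved most without dICB replicate 1, 8 had a window and 2 held it. A match describes the letters and shows no binding.

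Differences that did not rest on 1 sample were smaller. The groups did not overlap in 50 of 635 genes (7.87%), 24 higher (3.78%) and 26 lower (4.09%) with Dexa 10 mg. In 13 of them, 4 higher and 9 lower, the log2 fold change was over 0.5 in size with all samples, without dICB replicate 1, without Dexa 10 mg replicate 2 and without both. This limit was set after the values had been seen, and the genes nearest to it were Epcam at 0.505 inside and Sh2d1b1, an adaptor of SLAM receptors, at 0.49990 outside. None of the 13 passed adjustment. With 3 samples per group, full separation also arises by chance, in a share at least as large as the 7.87% found. The 50 genes and the 13 among them are therefore only described, and their counts do not stand as support for a difference.

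The 9 lower ones included genes of vessels and stroma. Vwf, the von Willebrand factor of endothelium and platelets, was at 56.2, 55.4 and 93.8 under dICB and 44.9, 42.8 and 39.2 with Dexa 10 mg (-0.67 ± 0.23; -0.79 without both libraries). Tie1, an endothelial receptor kinase, was at 99.8, 93.7 and 81.9 against 56.9, 62.4 and 54.0 (-0.67 ± 0.24; -0.67 without both). In both genes every Dexa 10 mg sample lay below every dICB sample, and the Dexa 10 mg samples lay close together. Mmp9, a protease that degrades basement membrane and that neutrophils and macrophages also release, was at 156, 74.1 and 112 against 63.3, 54.0 and 58.3 (-0.96 ± 0.29; -0.59 without both). Cxcl12, a stromal chemokine that retains leukocytes and progenitors, was at 444, 476 and 247 against 215, 209 and 131 (-1.08 ± 0.53), and Ccl21a, a homing chemokine of lymphatic vessels with near-identical copies, at 26.7, 45.6 and 78.9 against 22.9, 17.7 and 20.03 (-1.28 ± 0.40). Ccl21a was above background in 2 of the 6 samples, both under dICB, and background limits its fold change.

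Over the whole endothelial list 9 of 12 tested genes were lower and 5 did not overlap between the groups, against 4.09% of all genes. The other 3 without overlap were Pecam1, a junction protein, at 220.2, 213 and 209 against 171, 103 and 184, Kdr, the main receptor for VEGF, at 56.2, 57.8 and 67.0 against 37.6, 27.0 and 54.9, and Thbd, the thrombin receptor thrombomodulin, at 39.2, 33.4 and 35.7 against 28.4, 23.3 and 28.7. Kdr was at background in Dexa 10 mg replicate 2 and Thbd in Dexa 10 mg replicates 2 and 3. In Pecam1 and Kdr the lowest value was that of Dexa 10 mg replicate 2, and without it their log2 fold changes were -0.27 and -0.38 in place of -0.49 and -0.59. The groups overlapped in Cdh5, the endothelial cadherin, at 133, 90.4 and 107 against 86.2, 103 and 68.8, and Mcam was level at 332, 310.3 and 350.0 against 301, 318 and 408. The list median was -0.39, and -0.24, -0.24 and -0.22 without dICB replicate 1, without Dexa 10 mg replicate 2 and without both. Its score was 0.10 to 0.18 in the dICB samples and -0.29 to -0.01 in those with Dexa 10 mg. The SD of this score within groups, pooled over the series, was 0.20. The score ran from -0.10 to 0.36 under isotype and from -0.34 to 0.16 with Dexa 200 mg. The dICB and Dexa 10 mg scores thus did not overlap, but those of isotype and of Dexa 200 mg each ran across 0. The gap was not tested.

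Fibroblast and matrix genes were less uniform, with 9 of 14 lower and a median of -0.27. Cxcl14, a chemokine of stroma and epithelium, was at 540.2, 56.2 and 354 against 93.5, 96.8 and 102 (-1.70 ± 0.58). The dICB samples disagreed, 2 of them far above the Dexa 10 mg samples and 1 below, and without that low one, replicate 2, Cxcl14 was at -2.16 with an adjusted p of 0.0176 by edgeR, the only gene to pass in that fit (0.157%). Over leaving out each of the 12 samples in turn the adjusted p ran from 0.0176 to 0.994, the highest without dICB replicate 1, where the log2 fold change was -1.01. Col1a1, the main fibrillar collagen chain, was at 3055, 2285 and 3369 against 2643, 2136 and 2083, with the groups overlapping.

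The other 4 lower genes are known mainly from immune cells or the interferon response. Clec5a, a myeloid lectin receptor, was at 62.4, 72.5 and 47.7 under dICB and 45.8, 37.2 and 38.3 with Dexa 10 mg (-0.60 ± 0.22). Icos, a costimulatory receptor of activated and regulatory T cells, was at 56.2, 85.5 and 49.1 against 48.6, 41.9 and 38.3 (-0.58 ± 0.29), its lowest dICB value just above the highest with Dexa 10 mg. Fcer1a, the IgE receptor chain of mast cells and basophils, was at 46.4, 42.4 and 50.6 against 33.0, 27.0 and 31.4 (-0.60 ± 0.25). Ifit1, an interferon-induced protein that binds foreign RNA, was at 51.7, 67.6 and 71.5 against 47.7, 27.9 and 40.1 (-0.71 ± 0.31). Without both libraries these were at -0.55 for Clec5a, -0.67 for Icos, -0.51 for Fcer1a and -0.66 for Ifit1. Fcer1a was above background in 4 and Ifit1 in 5 of the 6 samples.

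**Figure D3:**
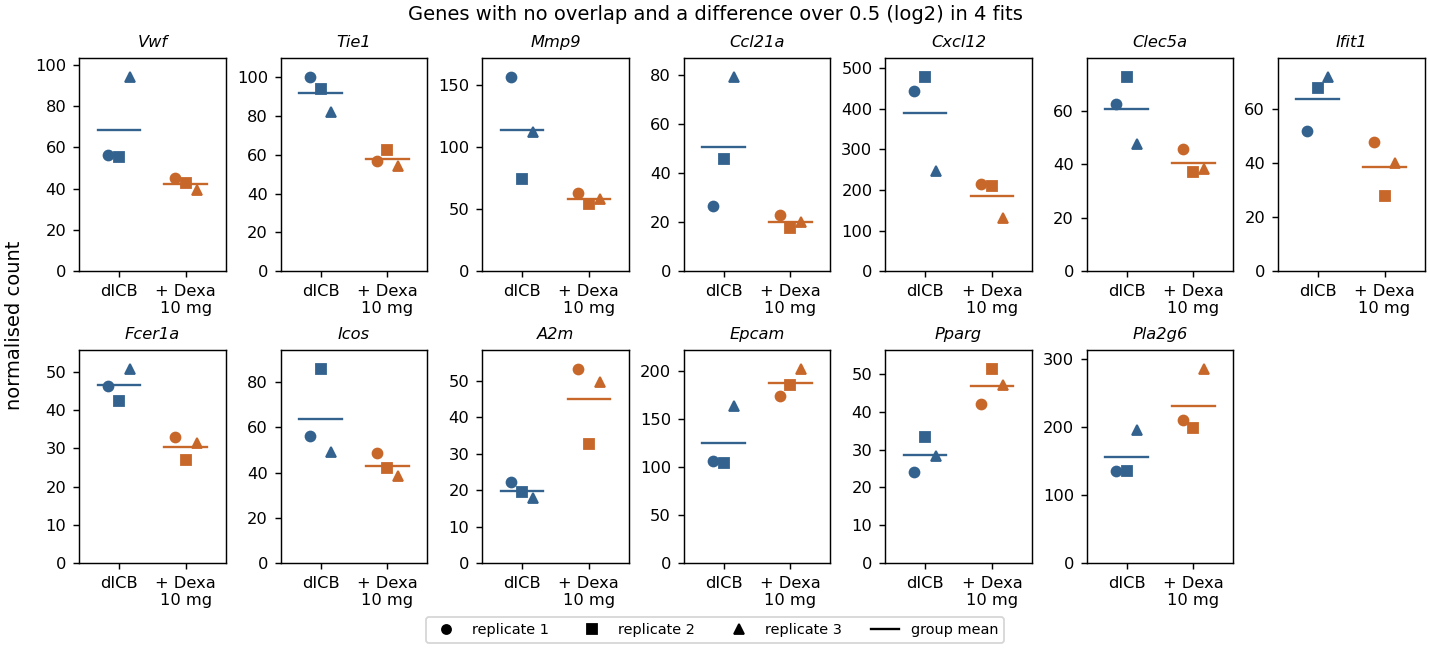
Normalised counts, 1 panel a gene, of the 13 genes whose groups did not overlap and whose log2 fold change was over 0.5 in size in 4 fits; blue marks dICB, orange Dexa 10 mg added, the marker shape the replicate and the bar the group mean. In the first 9 panels the orange samples lie below the blue ones and in the last 4 above them, as in A2m at 32.6 to 53.2 against 17.9 to 22.3.

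Higher with Dexa 10 mg in that set were A2m, Pparg, Epcam and Pla2g6. A2m, a broad protease inhibitor of plasma made in liver, was at 22.3, 19.5 and 17.9 under dICB and 53.2, 32.6 and 49.6 with Dexa 10 mg (1.17 ± 0.35; 1.44 without both libraries). Its 3 dICB values were all below background, which limits its fold change. Pparg, the nuclear receptor of fat storage and of lipid handling in macrophages, was at 24.1, 33.4 and 28.3 against 42.2, 51.2 and 47.0 (0.71 ± 0.27), above background in 4 samples. Epcam, an adhesion protein of epithelial and progenitor-like liver cells, was at 107, 104 and 164 against 174, 186 and 202 (0.59 ± 0.22), and Pla2g6, a phospholipase, at 135, 136 and 195 against 211, 199 and 285 (0.58 ± 0.26). In both of these dICB replicate 3 came closest to the Dexa 10 mg samples.

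Among the other liver and epithelial genes, Ambp, the plasma precursor of alpha-1-microglobulin made by hepatocytes, was at 54.4, 50.5 and 136 against 299.9, 88.4 and 475 (1.87 ± 0.75). Dexa 10 mg replicate 2 lay within the dICB range and the other Dexa 10 mg samples above it. Apoe, an apolipoprotein of hepatocytes and macrophages, was at 12055, 15034 and 37917 against 22532, 21642 and 20319 and C3, the central complement protein, at 4008, 2179.6 and 3416 against 3679.9, 4647 and 3831, both overlapping. Of 11 tested epithelial and tumour cell genes 9 were higher, with a median of 0.40 and 0.24 without both libraries. They included Myc, the growth regulator, at 834, 837 and 1178 against 1100.4, 1094 and 1556 and Birc5, a mitotic survival gene, at 157, 115 and 121 against 123, 217 and 182. Housekeeping genes, measured as a reference for RNA input, moved with them: 18 of 20 were higher, with a median of 0.23. Scaling to them brought the epithelial median to 0.20 and that of all genes to -0.19, and their part in the epithelial values was not tested.

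Some of the smallest p-values among the higher genes belonged to differences of under 2-fold that no single sample set. Psmd7, a lid subunit of the proteasome, was at 619, 617 and 614 against 711, 975 and 979 (0.53 ± 0.17), with dICB values almost equal. Sf3a3, a splicing factor of the housekeeping set, was at 304, 262 and 243 against 349, 456 and 363 (0.53 ± 0.19), and Hprt, a purine salvage enzyme of that set, at 693, 889 and 722 against 929, 1077 and 1064. Stat5b, which carries growth hormone and interleukin-2 signals, was at 209, 210.1 and 207 against 259.5, 304 and 255. In none of these 4 genes did the groups overlap. Without both libraries Stat5b was at 0.30. Scaled to the housekeeping genes, the 4 log2 fold changes were 0.34, 0.35, 0.23 and 0.22.

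Cfd, the complement protease adipsin of fat cells, had the largest upward fold change, 4.12 ± 1.76, and it came from 1 sample. It was at 16.9, 37.5 and 35.7 under dICB and 30.3, 18.6 and 1510.1 with Dexa 10 mg, so that only Dexa 10 mg replicate 3 was high. Without that sample its log2 fold change was -0.29.

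Macrophage genes showed no common direction, with 11 of 24 higher, 13 lower and a median of -0.035, and 12 higher and 12 lower without both libraries that stood apart. Emr1, the F4/80 marker, was at 249, 429 and 290.4 against 403, 288 and 332, and Ptprc, the pan-leukocyte marker CD45, at 562, 554 and 423 against 575, 493 and 433, both overlapping widely. Arg1, the arginase of macrophages and hepatocytes, was at 1347, 1271 and 833 against 508, 870.5 and 375 (-0.98 ± 0.31) and overlapped only through Dexa 10 mg replicate 2. Without that sample it was at -1.37. Marco, a scavenger receptor, was at 103, 259 and 70.0 against 52.3, 122 and 43.5 (-1.003 ± 0.47; -1.60 without Dexa 10 mg replicate 2). Nos2, the inducible nitric oxide synthase that competes with arginase for arginine, was at 399, 240.3 and 165 against 197, 245 and 112 (-0.54 ± 0.36), with overlap. Abca1, a cholesterol exporter, was at 733, 626 and 721 against 569, 314 and 509 with no overlap (-0.58 ± 0.23), though -0.36 without Dexa 10 mg replicate 2.

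Replicate 2 of Dexa 10 mg decided the values of a further group of genes. Cd99, a membrane protein of leukocytes and endothelium, was at 1441 there and at 394 to 654 in the other 5 samples. The cytokine Mif was at 5408 against 1882 to 2386, and Ccl17, a T cell chemokine of dendritic cells, at 291 against 54.4 to 105. Ccl17 stayed above dICB in every Dexa 10 mg sample (54.4, 93.7 and 67.0 against 105, 291 and 100.1), with a log2 fold change of 1.20 ± 0.44 and 0.52 without that sample. Of the interferon-induced genes, Ifit3 was high in it too, at 634 against 193 to 332 and Isg15, a ubiquitin-like protein, at 296 against 99.95 to 192. Others were at their lowest there, with Ifit1 at 27.9 against 40.1 to 71.5, Stat2, which carries interferon signals to the nucleus, at 129 against 466 to 648 and Herc6, an interferon-induced ligase, at 105 against 229 to 359.

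Other genes were at their lowest there. The low-affinity IgG receptor Fcgr3 was at 34.4 in this sample and 161 to 252 in the other 5, Csf1, the macrophage growth factor, at 90.3 against 344 to 517 and Icam1, the adhesion ligand of leukocytes, at 155 against 528 to 718. The kinase Jak2 was at 309 against 1043 to 1591, the AP-1 subunit Jun at 28.9 against 113 to 174 and Tcf7, the factor of naive and stem-like T cells, at 101 against 286 to 585. Polr2a, the large subunit of RNA polymerase II and a housekeeping gene, was low as well, at 208 against 514 to 684. The 21 genes at under 0.5 times all other samples (3.31% of those tested) included 3 of 26 JAK-STAT genes, 2 of 20 housekeeping genes and 2 of 27 NF-kB response genes, and 0 of 8 neutrophil genes. Without this library the log2 fold change of Cd99 went from 0.35 to -0.55, of Ifit3 from 0.42 to -0.38 and of Csf1 from -0.36 to 0.089.

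**Figure D4:**
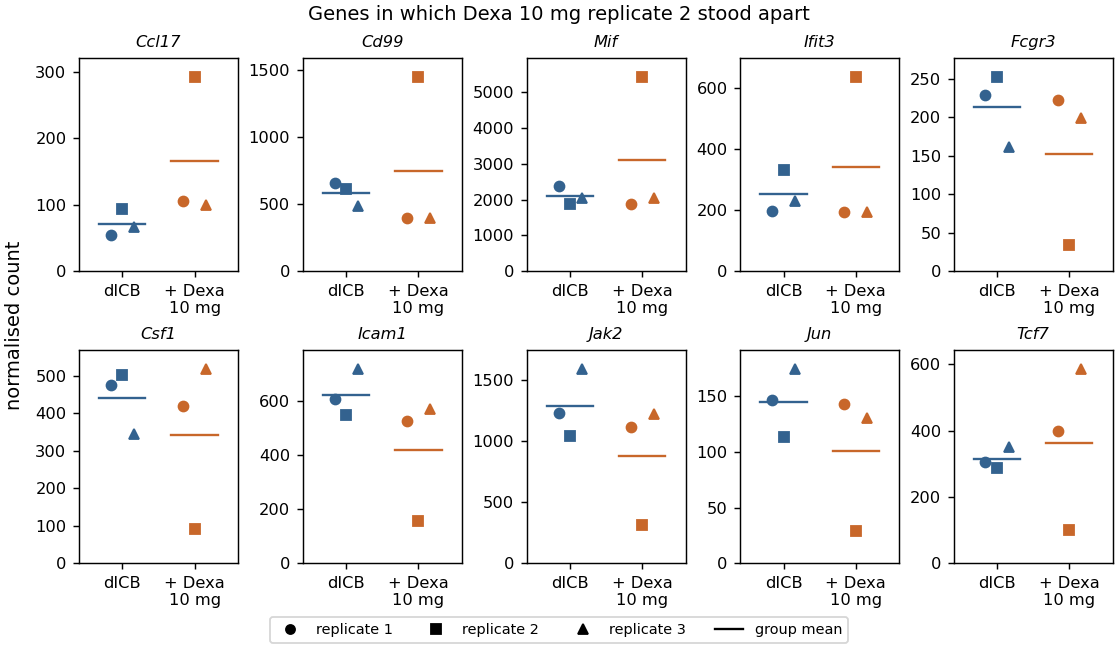
Normalised counts, 1 panel a gene, for dICB (blue) and Dexa 10 mg added (orange), with the marker shape giving the replicate and the bar the group mean. The orange square, Dexa 10 mg replicate 2, is the highest sample in the first 4 panels and the lowest in the other 6, as in Fcgr3 at 34.4 where the other 5 samples lie at 161 to 252.

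Markers of lymphocytes did not differ beyond the spread of the samples. Cd8a, the coreceptor of cytotoxic T cells, was at 56.2, 122 and 81.9 under dICB and 113, 41.0 and 119 with Dexa 10 mg (0.067 ± 0.40), and Cd4, that of helper T cells, at 42.8, 44.8 and 23.8 against 33.0, 65.2 and 24.4 (0.11 ± 0.39). Cd3e, a chain of the T cell receptor complex, was at 64.2, 139 and 83.4 against 104, 59.6 and 113. Of 18 tested T cell genes 9 were higher and 9 lower, with a median of 0.025, and 0 had an unadjusted p under 0.05. Without both libraries 15 of the 18 were lower, with a median of -0.16. Foxp3, the factor of regulatory T cells, was at background, with raw counts of 21, 22 and 8 and 19, 14 and 22, as were the B cell gene Cd79a and the NK cell gene Ncr1 in all 6.

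Genes of cell killing likewise overlapped. Gzmb, a granzyme, was at 103, 179 and 93.8 against 91.7, 161 and 77.5 (-0.20 ± 0.32), Prf1, the pore-forming perforin, at 70.4, 132 and 67.0 against 88.9, 172 and 109.7 and Ifng, the cytokine of activated T and NK cells, at 17.8, 39.9 and 20.9 against 33.0, 42.8 and 31.4, above background in 3 of 6. Of 11 tested cytotoxic effector genes 6 were higher and 5 lower (5 and 6 without both libraries), and of 12 NK cell genes 8 were higher (10 without both). Without both Gzmb was at -0.71, Prf1 at -0.032 and Ifng at 0.0094. In Gzmb, Prf1 and Ifng alike, the highest Dexa 10 mg sample was replicate 2 and the highest dICB sample replicate 2. Shared numbers do not pair these samples in the labels.

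The targets of the antibodies and their partners were also compared. Pdcd1, which encodes PD-1, was at 267, 376 and 199.6 against 226, 480.4 and 268 (0.21 ± 0.36) and changed sign without Dexa 10 mg replicate 2 (-0.19). Cd274, the ligand PD-L1, was at 1916, 1506 and 1622 against 1158, 2128 and 905 (-0.27 ± 0.27). There the Dexa 10 mg samples held both the highest and the lowest values of the 6, and without their replicate 2 the log2 fold change was -0.70. Ctla4 was at 84.7, 68.4 and 52.1 against 39.4, 58.7 and 40.1 (-0.58 ± 0.25; -0.37 without dICB replicate 1). Il2ra, the interleukin-2 receptor chain that CTLA-4-bearing regulatory T cells also carry, was at 48.1, 57.8 and 62.6 against 33.0, 61.4 and 35.7 (-0.37 ± 0.25), and at -0.80 without both libraries. Ido1, an enzyme that depletes tryptophan, was at 249, 198 and 109 against 253, 336 and 265 with no overlap (0.61 ± 0.29). Of 29 tested checkpoint and costimulation genes 11 were higher and 18 lower, with 1 at an unadjusted p under 0.05.

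Interferon and antigen presentation genes lay close to 0 as lists. Cxcl10, an interferon-induced T cell chemokine, was at 1428, 1678 and 1315 against 1768, 2649.7 and 1811 with no overlap (0.49 ± 0.20; 0.28 without Dexa 10 mg replicate 2), and Bst2, the antiviral tetherin, at 738, 837 and 822 against 945, 1059 and 1103 with none either (0.37 ± 0.16). Cxcl9, a ligand of the same receptor as Cxcl10, was at 1784, 2426 and 2842 against 2459, 2544 and 2418, and the MHC genes H2-K1 of class I and H2-Ab1 of class II were at 0.056 ± 0.23 and 0.28 ± 0.23. Of 24 interferon-stimulated genes 12 were higher and 12 lower, and 7 higher and 17 lower without Dexa 10 mg replicate 2, with a median of -0.14. Of 20 interferon-gamma response genes 13 were higher, and 8 without Dexa 10 mg replicate 2. The median of the latter list was 0.16 with all samples and -0.042 without that library. MHC class I and antigen processing genes went from 11 of 16 higher to 6 of 16 without it.

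Genes known to answer to glucocorticoids were looked up as 2 lists. Of 24 tested genes known to be repressed, 15 were lower and 9 of them, Il6 and Cxcl1 included, had an unadjusted p under 0.05 (over all genes 6.3%), with a median of -0.53. Il6 and Cxcl1 were above background only in dICB replicate 1, so here too the count does not stand as support. Without dICB replicate 1 the 24 genes numbered 10 lower and 14 higher, with a median of 0.15 and 0 lower at an unadjusted p under 0.05. Tnf, the founding member of its cytokine family, was the one of them besides Mmp9 whose lower values did not overlap, at 57.9, 41.5 and 40.2 against 33.9, 32.6 and 33.1 (-0.49 ± 0.25). Tnf was at background in Dexa 10 mg replicate 3 and close to it in replicate 2, which limits its fold change. Of 14 tested genes known to be induced, 4 were higher and 10 lower, with a median of -0.20, and 0.099 without dICB replicate 1. Without Dexa 10 mg replicate 2, 13 of the 14 were lower, with a median of -0.37. Among them Nfkbia, the inhibitor of NF-kB, was at 903, 285 and 234 against 227, 468 and 260.4, Anxa1, a mediator that limits neutrophil entry, at 856, 989.6 and 822 against 725, 1292 and 805, and Il7r, the interleukin-7 receptor, at 239, 192 and 68.5 against 149, 224 and 84.5. The macrophage receptors Cd163 and Mrc1 were at -0.49 ± 0.34 and 0.0086 ± 0.34. The most used readouts of this receptor, Tsc22d3, Fkbp5, Per1 and Dusp1, were not analysed here.

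The remaining lists held few differences. Of 15 dendritic cell genes 10 were higher, 3 of them without overlap where 3.78% of all genes were (Ccl17, Bst2 and the maturation marker Cd83, the last at 165, 213 and 286 against 293, 336 and 307). Mast cell and basophil genes were lower in 5 of 6 (3 of 6 without both libraries), with Tpsab1, a tryptase, at 23.2, 26.1 and 23.8 against 22.0, 12.1 and 15.7 but at background in all samples. CC chemokines were higher in 13 of 20 and CXC and other chemokines lower in 10 of 15, the latter with 7 of 15 lower without dICB replicate 1. Chemokine receptors were lower in 9 of 12, B and plasma cell genes in 6 of 10 and innate sensors and adaptors in 20 of 32 (16 of 32 without both libraries). Complement genes were higher in 12 of 20, MHC class II genes in 8 of 11 (4 of 11 without dICB replicate 1), apoptosis genes in 11 of 14 and TNF superfamily genes in 16 of 27 (11 of 27 without Dexa 10 mg replicate 2). Regulatory T cell genes were lower in 5 of 7, JAK-STAT and cytokine receptor genes in 14 of 26 (19 of 26 without Dexa 10 mg replicate 2) and immediate early genes in 2 of 5, where 51.2% of all tested genes were lower. Such counts turned on the scaling. With housekeeping gene factors 161 of all 635 genes were higher, and with positive control factors 439. In that order, 5 and 17 of 20 complement genes and 4 and 10 of 11 MHC class II genes were higher. So were 5 and 12 of 12 NK cell genes and 7 and 20 of 27 TNF superfamily genes. Neutrophil genes were lower in 8 of 8 under both.

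**Figure D5:**
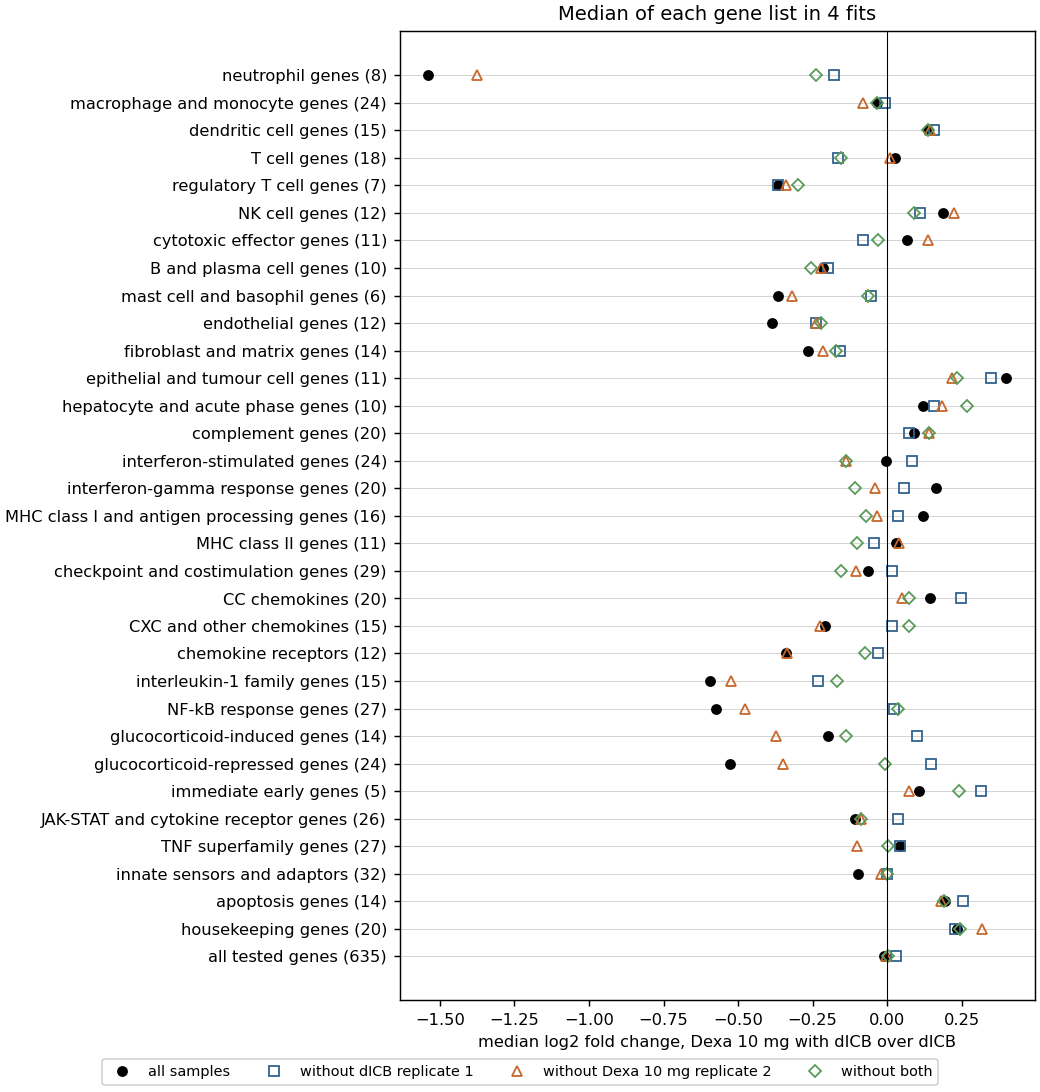
Median log2 fold change of Dexa 10 mg with dICB over dICB for each gene list (number of tested genes in brackets) and for all tested genes, with all samples (black) and without the libraries that stood apart. Neutrophil genes lie furthest left with all samples, at -1.54, and at -0.18 without dICB replicate 1. Many lists keep their sign in all 4 fits, among them the endothelial and regulatory T cell lists below 0 and the housekeeping and epithelial lists above 0.

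Among these 6 samples the code in the labels could be compared only through Dexa 10 mg replicate 2, the single sample of that group coded ICI10. Within that code, 3 dICB samples against 1, Vwf was at -0.66, Tie1 at -0.56, Mmp9 at -1.07, Epcam at 0.58, A2m at 0.70 and Pla2g6 at 0.36. The signs of these genes were fixed by their choice, since no Dexa 10 mg sample of theirs overlapped dICB. With the code as a covariate over all 12 samples A2m was at 0.49 in place of 1.17. The hepatocyte gene Ambp went from 1.87 to 0.50 under that covariate. The covariate also drew on the Dexa 200 mg samples, of which replicates 1 and 2 were coded ICI10 and replicate 3 ICI7. In the isotype samples, all coded ICI7, Ambp was at 78.8 to 295. The within-code fit called 28 genes (4.41%) at an adjusted p under 0.05 by edgeR, 10 higher (1.57%) and 18 lower (2.83%), which compares 1 library with 3. These included Fcgr3 at -2.63, Csf1 at -2.29, Jun at -2.32 and Mif at 1.36. Cd8a, low in that sample, was at -1.08 within the code and at -0.78 with it as a covariate, in place of 0.067. Within the code, the code and Dexa 10 mg replicate 2 cannot be told apart.

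Levels in the other groups of the series place these values. In isotype samples Mmp9 was at 100.4 to 130.1 and with Dexa 200 mg at 31.0 to 61.4, where dICB stood at 74.1 to 156 and Dexa 10 mg at 54.0 to 63.3. Epcam was at 187 to 248 under isotype and 114 to 134 with Dexa 200 mg, so that the Dexa 10 mg samples at 174 to 202 lay between dICB at 104 to 164 and isotype, with overlap towards isotype. Arg1 was at 288 to 453 under isotype and 1136 to 1788 with Dexa 200 mg, and Vwf at 40.4 to 48.8 and 42.3 to 51.1. A2m was at 28.2 to 48.2 under isotype and 13.6 to 37.9 with Dexa 200 mg. Tie1 was at 58.3 to 92.9 under isotype and 43.7 to 75.7 with Dexa 200 mg, so that for both vessel genes the Dexa 10 mg range overlapped that of the isotype samples. The dICB range of Tie1 overlapped that of the isotype samples too, while the dICB range of Vwf lay above it. These levels were not tested.

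The 135 genes under the filter were nearly all at background. Of these, 130 were at or below background in all 6 tumours, 0 lay above it in all 6, and 0 lay above it in every sample of one group and none of the other.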

How the data were processed

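RNA of formalin-fixed primary tumours was extracted with a Qiagen miRNeasy FFPE kit, per the labels' protocols. The authors deposited whole-number counts per gene for 770 endogenous genes with 6 positive and 8 negative controls, with no normalisation visible in the values. For instrument, panel and counting software, nothing is stated in the labels. From these counts, the 635 genes whose mean reached 20 were fitted with edgeR 4.0.16 (R 4.3.3), with TMM factors, 1 mean per group over all 12 samples and a quasi-likelihood test with Benjamini-Hochberg adjustment over 635 genes. The common biological coefficient of variation was 28.3% with 8 residual degrees of freedom. Normalisation scaled each sample to the average effective library. A gene was above background past the mean plus 2 SD of a sample's negative controls. Alternatives used DESeq2 1.42.0, limma 3.58.1, other factors, filters, covariates and left-out samples. On simulated data for this comparison over 635 genes, 61.5% of 109 genes changed by 1 on the log2 scale and 96.7% of 91 changed by 2 were called, with 2.07% of 435 unchanged ones. The simulated data held no library that stood apart, and such shares depend on how many genes are changed. They therefore do not give the power of the comparison in the real samples. All columns were matched to samples by the labels.

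Genes were named by a rule: the 15 smallest p-values in each direction, 10 in each direction without both libraries that stood apart, the 10 genes moved most by either library, 3 a list and 9 genes always shown. Other genes, named after their values had been seen, were Abca1, Anxa1, Apoe, Birc5, Cd3e, Cdh5, Col1a1, Csf1, Cxcl9, Fcgr3, Gzmb, H2-K1, Herc6, Icam1, Il1rap, Il1rn, Il7r, Jun, Kdr, Mcam, Mrc1, Nfkbia, Nos2, Pla2g6, Polr2a, Stat2, Tcf7 and Thbd. The gene lists and the comparison were chosen with earlier results of these data known. Gene names are the file's own, and 754 of 770 are current RefSeq symbols. Promoter windows come from RefSeq's table for GRCm38.p6.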

Additional observations from a re-analysis of the deposited data

How the results depend on the processing

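The count of genes at an adjusted p under 0.05 stayed at 0 under DESeq2, the other normalisations, the other filters, the compared groups alone (32 genes at an unadjusted p under 0.05), the code as a covariate, background subtraction with limma (33 genes, 18 higher and 15 lower) and robust moderation, and without both libraries that stood apart (30 genes). It was 28 within samples coded ICI10, with 159 genes at an unadjusted p under 0.05, where 1 library of Dexa 10 mg is left. Over leaving out each of the 12 samples in turn it ran from 0 to 1 and the unadjusted count from 25 to 76, the lowest without dICB replicate 1. With replicate number as a block it was 0, with 47 genes at an unadjusted p under 0.05. Deviations of samples of the same number correlated at -0.080, -0.0071 and 0.25 for numbers 1, 2 and 3. Those of unlike number ran from -0.15 to 0.16, so number 3 alone lay above that range. The labels state no pairs, and the numbers were not read as pairs. Named genes changed sign under these settings, with these log2 fold changes. Housekeeping gene factors gave Anxa1 -0.072, Cd4 -0.038, Cd8a -0.15, Cxcl9 -0.089, Emr1 -0.10, H2-K1 -0.097, Isg15 -0.0084, Mcam -0.15, Mrc1 -0.13 and Tcf7 -0.053. Without both samples that stand apart gave Anxa1 -0.24, Cd163 0.21, Cd4 -0.33, Cd99 -0.47, Csf1 0.14, Cxcl2 0.26, Cxcl9 -0.11, Cxcr2 0.13, Fcgr3 0.024, H2-K1 -0.17, Herc6 0.063, Ifit3 -0.54, Isg15 -0.35, Lcn2 0.92, Mrc1 -0.31, Pdcd1 -0.23, Polr2a 0.089, Prf1 -0.032, Ptgs2 0.13, Ptprc 0.042 and S100a8 0.44. Positive control factors gave Apoe 0.10, Cd3e 0.10, Il7r 0.018 and Ptprc 0.12. Replicate block gave Apoe 0.12 and Cd8a -0.00058. Background subtracted, limma gave Apoe 0.18, Cd4 -0.21, Cd8a -0.27, Isg15 -0.061, Mrc1 -0.090 and Tcf7 -0.22. Sample code as a covariate gave Cd274 0.085, Cd8a -0.78, Cxcl9 -0.036, Emr1 -0.25, Il7r 0.11, Mcam -0.092 and Tcf7 -0.47. Within samples coded ICI10 gave Cd274 0.34, Cd8a -1.08, Cfd -0.68, Emr1 -0.17, Gzmb 0.35, Il2ra 0.14, Il7r 0.42, Mcam -0.055 and Tcf7 -1.63. Mean count of at least 50 gave Mrc1 -0.014. Left out one at a time, the samples gave ranges that crossed 0 for Anxa1 -0.22 to 0.30, Apoe -0.26 to 0.68, Cd3e -0.26 to 0.36, Cd4 -0.39 to 0.37, Cd8a -0.18 to 0.43, Cd99 -0.55 to 0.74, Cfd -0.29 to 4.66, Csf1 -0.79 to 0.089, Cxcl2 -4.62 to 0.093, Cxcl9 -0.055 to 0.25, Cxcr2 -1.98 to 0.022, Emr1 -0.051 to 0.38, Gzmb -0.57 to 0.21, H2-K1 -0.10 to 0.29, Herc6 -0.54 to 0.19, Ifit3 -0.38 to 0.78, Il6 -3.75 to 0.017, Il7r -0.51 to 0.24, Isg15 -0.53 to 0.47, Lcn2 -4.75 to 0.66, Mcam -0.095 to 0.17, Mif -0.098 to 0.90, Mrc1 -0.36 to 0.24, Nfkbia -0.96 to 0.33, Osm -2.54 to 0.046, Pdcd1 -0.19 to 0.53, Polr2a -0.62 to 0.11, Ptgs2 -3.36 to 0.30, Ptprc -0.14 to 0.068, S100a8 -4.81 to 0.22, Tcf7 -0.32 to 0.65. The cause was not tested. In genes near background, such as A2m, Ccl21a, Cxcr2 and Il6, depth limits the size of a fold change.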
